A study of Mus musculus with 6 samples.

Results

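Ribosome biogenesis is described here through Myc and 42 factors that make or process ribosomal RNA (rRNA) and build the 2 ribosomal subunits, in B cells cultured with CpG. The 43 genes were taken by name and ordered by step: 9 of rRNA transcription and early processing, 14 of the small subunit, 12 of the large subunit and 8 of small nucleolar ribonucleoproteins (snoRNPs). All 43 were rows of a table of 41669 gene symbols, and all 43 passed the low-count filter that left 12172 genes. The libraries are from 3 female and 3 male mice, 1 mouse each, of the lupus-prone strain NZB/W F1 with late lupus-like disease. All 6 cultures shared the disease stage and 24 h of CpG, DNA that Toll-like receptor 9 senses, so neither disease nor stimulation can be compared here. The labels give no ages. Spleen B cells were obtained on a positive-selection column, and the RNA is bulk RNA of the whole culture. The comparison is females against males.

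Myc is a transcription factor that pairs with Max, binds the E-box DNA motif and drives growth genes, among them many that make ribosomes. RNA polymerase I copies the rRNA genes in the nucleolus, and the long precursor is folded, cut and chemically modified while ribosomal proteins join it. C/D snoRNPs methylate it and H/ACA snoRNPs convert uridines to pseudouridine. B cells that receive a Toll-like receptor signal grow in size before they divide, and Myc and nucleolar genes are known to be induced in that growth.

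The E-box was looked for in the promoters, because it is the motif that Myc and Max bind. The letters searched were CACGTG, which read the same on both strands, in windows from 250 bases before to 50 bases after each annotated start (RefSeq, GRCm38.p6). Of the 43 genes, 37 had a window, and Myc, Rrp12, Npm1, Bop1, Gnl2 and Fbl are not in this count. The motif stood in 7 of 37 (18.9%, 95% Wilson interval 9.48 to 34.2%), against 12.1% of the 8543 tested genes with a window and 8.09% of all 27025 genes with a window. In 6 of the 7 it reached into the 50 bases from the start. This was the case in 16.2% of the 37 genes (95% Wilson interval 7.65 to 31.1%) and in 2.60% of the 8543 tested genes. The split at the start was chosen after seeing the data, so these shares are a description only. Before the start it stood in 1 of 37 (2.70%), against 10.03% of the tested genes. The 7 stretches of 30 bases are shown because they place the motif against the start. Capitals mark the E-box, and its first base lay at base 3 in Pes1, counted from 1 at the RefSeq start, 18 in Wdr43, 25 in Tsr1, 29 in Ltv1, 38 in Utp20, 41 in Mybbp1a and 60 bases before the start in Nop2. A match describes the letters only, and binding was not measured.
Pes1 at chr11:3963965-3963994, plus strand: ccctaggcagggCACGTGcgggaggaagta
Wdr43 at chr17:71616220-71616249, plus strand: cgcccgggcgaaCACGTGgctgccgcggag
Tsr1 at chr11:74898092-74898121, plus strand: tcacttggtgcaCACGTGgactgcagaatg
Ltv1 at chr10:13193092-13193121, minus strand: gccctgtggaccCACGTGtggagctgccgg
Utp20 at chr10:88826765-88826794, minus strand: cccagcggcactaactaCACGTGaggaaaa
Mybbp1a at chr11:72441347-72441376, plus strand: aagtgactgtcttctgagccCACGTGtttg
Nop2 at chr6:125131811-125131840, plus strand: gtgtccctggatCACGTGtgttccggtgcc

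Coding sequences are shown because the values of these genes moved with the GC content of their transcripts, as described with the single libraries further on. Each pair below encodes partners of 1 complex, the one with the higher level per kilobase of coding sequence first, and capitals mark G and C. Bases 1 to 120 of each coding sequence are given (GENCODE M21, GRCm38). Nop58 and Fbl belong to the C/D snoRNP, Dkc1 and Nhp2 to the H/ACA snoRNP, and Wdr12 and Bop1 to a complex of the large subunit. G and C made up 46 and 78 of the 120 bases in Nop58 and Fbl, 45 and 76 in Dkc1 and Nhp2, and 56 and 73 in Wdr12 and Bop1. Over the longest coding transcript the GC content was 41.0 and 56.7%, 43.6 and 54.1%, and 40.4 and 58.3% in these pairs.
Nop58: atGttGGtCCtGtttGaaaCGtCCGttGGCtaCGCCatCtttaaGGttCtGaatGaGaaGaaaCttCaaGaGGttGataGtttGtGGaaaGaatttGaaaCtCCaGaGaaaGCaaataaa
Fbl: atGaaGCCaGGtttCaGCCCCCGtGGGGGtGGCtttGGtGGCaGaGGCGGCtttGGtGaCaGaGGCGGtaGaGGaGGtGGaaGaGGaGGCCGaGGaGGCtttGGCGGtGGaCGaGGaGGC
Dkc1: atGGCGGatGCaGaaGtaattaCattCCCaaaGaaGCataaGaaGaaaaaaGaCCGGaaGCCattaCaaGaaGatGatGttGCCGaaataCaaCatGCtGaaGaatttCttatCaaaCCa
Nhp2: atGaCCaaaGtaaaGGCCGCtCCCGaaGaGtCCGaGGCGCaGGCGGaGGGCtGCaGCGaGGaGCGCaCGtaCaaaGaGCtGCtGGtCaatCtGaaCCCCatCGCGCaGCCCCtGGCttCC
Wdr12: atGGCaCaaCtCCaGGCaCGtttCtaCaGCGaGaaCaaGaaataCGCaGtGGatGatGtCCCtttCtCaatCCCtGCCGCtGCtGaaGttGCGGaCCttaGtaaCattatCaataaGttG
Bop1: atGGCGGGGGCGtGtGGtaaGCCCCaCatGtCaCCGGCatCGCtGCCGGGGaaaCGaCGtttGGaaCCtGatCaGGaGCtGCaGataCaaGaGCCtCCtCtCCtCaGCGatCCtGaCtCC

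Library totals were between 24089561 and 35659883 estimated counts in the females and between 27402953 and 33205284 in the males. Levels are given as CPM, a read count normalised for depth by the sum of its library, and 3 counts, the floor for telling a level from 0, came to 0.0841 to 0.125 CPM. Of the B cell markers, Ms4a1 had 1424 to 1658 CPM in females and 1479 to 1632 CPM in males, and Pax5 had 524 to 591 CPM in females and 497 to 557 CPM in males. Cd79a, a part of the B cell receptor, had 4.61 to 29.4 CPM in females and 12.9 to 22.8 CPM in males, with its lowest value in female replicate 3. T cell markers (6 genes) summed to 4.49 to 7.45 CPM in females and 3.73 to 5.28 CPM in males, with Cd3e at 0 in 5 of 6 libraries. Myeloid markers (5 genes) summed to 4.21 to 9.26 CPM in females and 2.12 to 3.00 CPM in males without overlap. Lyz2 (2.20 to 3.32 CPM in females, 0.282 to 0.390 in males) and Spic (0.929 to 2.16 and 0.307 to 0.400) did not overlap. Their adjusted p was 0.0837 and 0.797 with edgeR, and 6.36e-08 and 0.0459 with DESeq2. In Itgam, Cd68 and Csf1r the sexes overlapped. Plasmablast markers (6 genes, Tnfrsf17 at 0) summed to 269 to 455 CPM in females and 247 to 293 CPM in males. Of these, Igj had 37.7 to 48.4 CPM in females and 17.0 to 18.3 CPM in males, and Prdm1 had 22.1 to 61.5 CPM in females and 11.7 to 12.9 CPM in males. Both were without overlap and higher in females (adjusted p = 0.169 for Igj and 0.999 for Prdm1 with edgeR, 9.97e-07 and 0.0194 with DESeq2). In Xbp1, Sdc1 and Irf4 the sexes overlapped. Xbp1 had 72.9 to 124 CPM in females and 104 to 122 CPM in males, and Sdc1 1.59 to 3.22 and 2.02 to 2.92 CPM. Irf4 had 123 to 225 CPM in females and 109 to 139 CPM in males. NK markers summed to at most 7.45 CPM in females and 3.85 CPM in males (Nkg7 and Ncr1 at 0), and neutrophil markers to at most 0.454 and 0.218 CPM. Erythroid markers summed to 0.718 to 2.34 CPM in females and 0.0178 to 0.422 CPM in males, without overlap. The part of these cells in the values below was not tested. In bulk RNA, fewer cells of a type and less RNA per cell cannot be told apart. Female replicate 3 stood apart, with a TMM scaling factor of 0.817, against 0.993 to 1.07 in the other 5.

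No gene of ribosome biogenesis was called between the sexes. With edgeR's quasi-likelihood test, 0 of 43 passed an adjusted p of 0.05 and 0 of 43 an unadjusted p under 0.05, and DESeq2 and limma-voom also called 0. Over all 12172 genes 0.0575% were called and 2.89% had an unadjusted p under 0.05. Log2 fold changes, female over male, were positive for 21 and negative for 22, with a median of -0.0021, against a median of 0.00095 and 50.1% positive over all genes tested. Of the 43, 42 lay within 0.5 of 0, and the exception was Nolc1. Standard errors ran from 0.13 to 0.76 with a median of 0.21, against 0.32 over all genes. The medians by step were -0.033 for rRNA transcription, -0.014 for the small subunit, 0.018 for the large subunit and -0.049 for snoRNPs. Libraries of the sexes did not overlap in 2 of 43 genes, Dkc1 higher and Nat10 lower in females, against 10.2% of all genes tested, 2.69% of them higher and 7.55% lower in females. Without female replicate 3 the median was 0.10 and 35 of 43 were positive, with 0 called, while the median over all genes was 0.0144. With scaling to library totals only, the median over all genes was -0.12, that of the 43 genes -0.099, and 8 of 43 were positive.

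**Figure D1:**
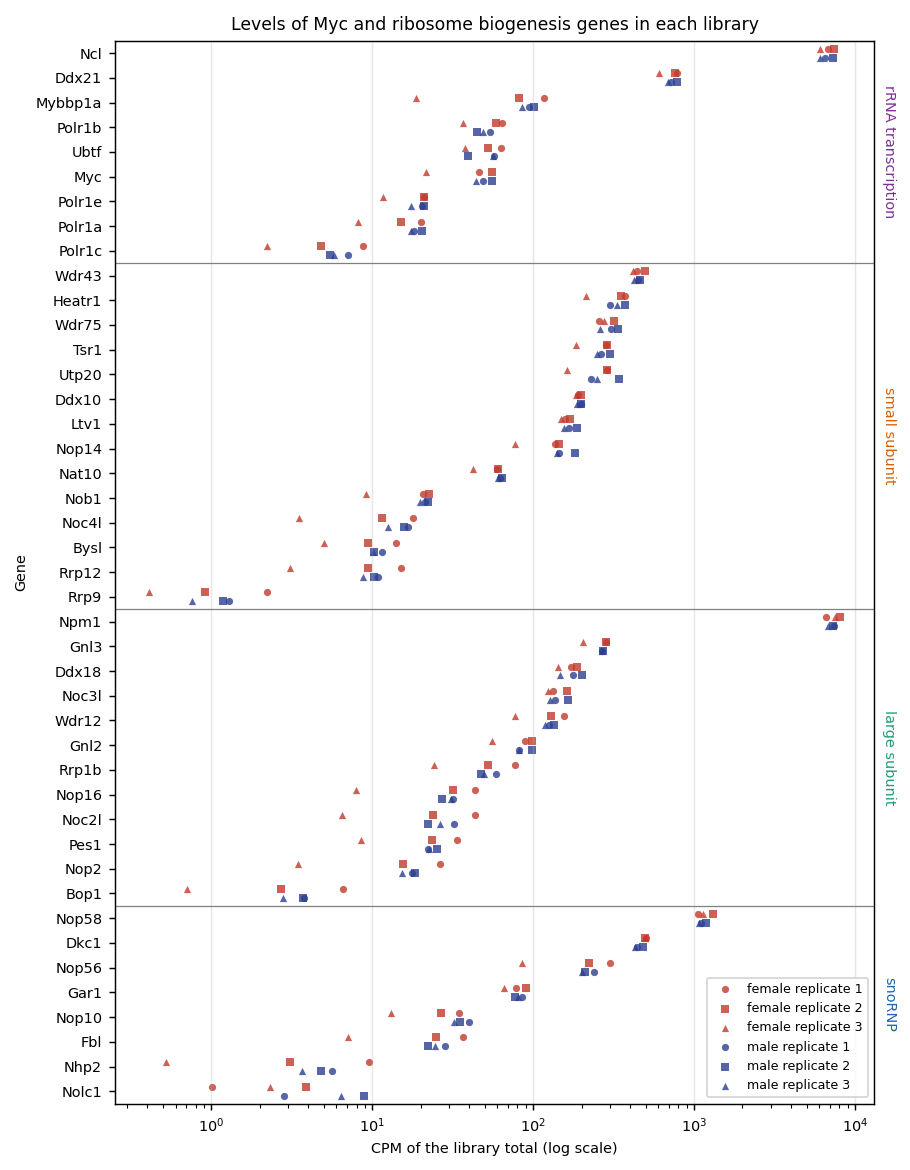
CPM of the library total (log axis) of the 43 genes in 3 female (red) and 3 male (blue) libraries, grouped by step and ordered by mean level. Ncl and Npm1 lie between 6054 and 8055 CPM, and the triangles of female replicate 3 are the lowest point of 38 of the 43 genes.

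**Figure D2:**
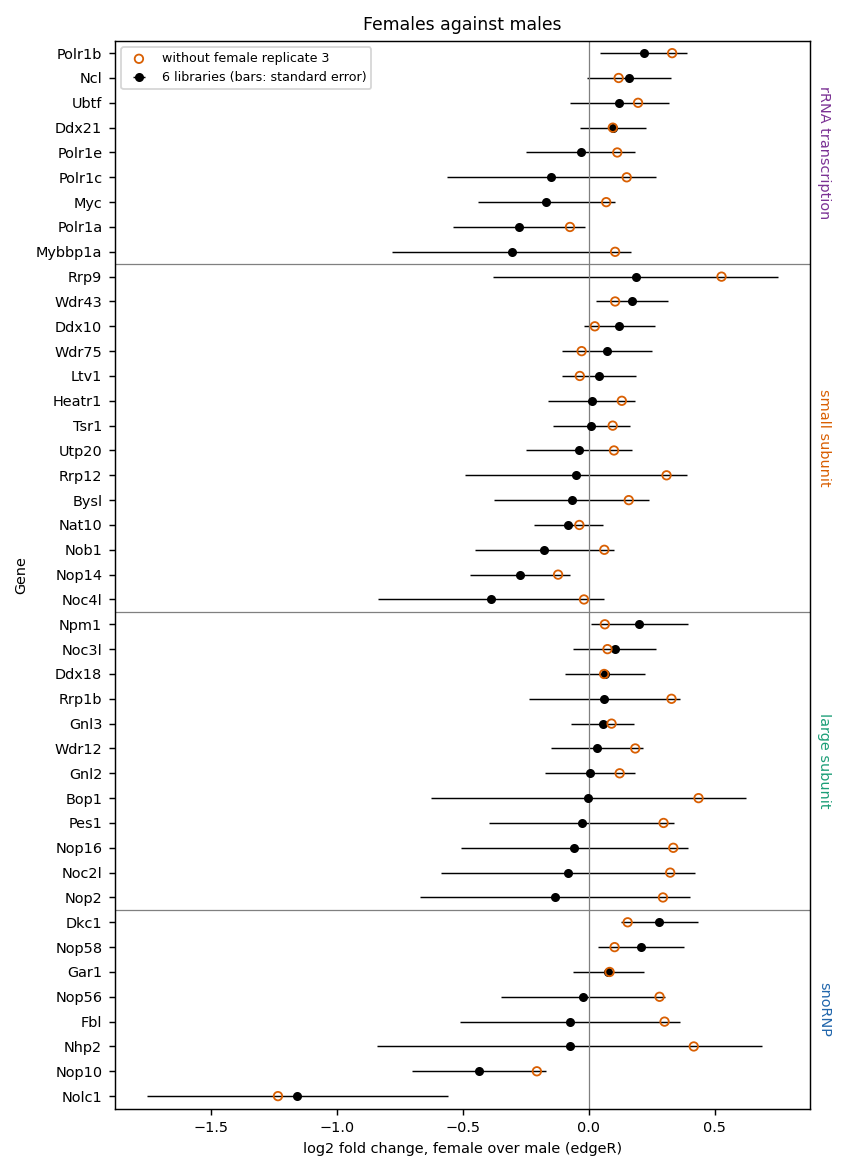
Log2 fold change, female over male, of each gene by step, from all 6 libraries (black, bars are 1 standard error) and without female replicate 3 (open circles). The values straddle 0, and without that library 35 of 43 lie above it.

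The genes of rRNA transcription differed more between libraries of 1 sex than between the sexes. Myc (chr15:61985391-61990374) had 45.8, 55.8 and 21.6 CPM in female replicates 1 to 3, against 48.6, 55.5 and 43.9 CPM in male replicates 1 to 3. Female replicate 3 was the lowest of the 6, and the other females spanned nearly the range of the males. The log2 fold change of Myc was -0.17 ± 0.27 (SE; edgeR adjusted p = 0.999), and 0.069 without female replicate 3. Polr1b, the second largest subunit of RNA polymerase I, had 63.8, 58.7 and 36.8 CPM in females and 54.2, 44.6 and 49.0 CPM in males. By library totals 2 females lay above all males and 1 below them, while with TMM factors the lowest library was male replicate 2 (0.22 ± 0.17, adjusted p = 0.999). Polr1a, the largest subunit, had 20.03, 15.1 and 8.16 CPM in females and 18.1, 20.3 and 17.5 CPM in males (-0.28 ± 0.26, adjusted p = 0.999). Here 2 of 3 females lay below all males, and without female replicate 3 the log2 fold change was -0.075. Of the other subunits, Polr1c, which RNA polymerase III shares, ran from 2.21 to 8.75 CPM in females and 5.47 to 7.06 CPM in males, and Polr1e from 11.6 to 20.97 and 17.6 to 21.01 CPM. Ubtf, the factor that opens rRNA gene promoters for the polymerase, ran from 38.0 to 63.1 CPM in females and 39.3 to 57.5 CPM in males.

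Of the nucleolar proteins that act on the new transcript, nucleolin (Ncl, chr1:86344719-86359400) had the highest level per kilobase of coding sequence in this step. It had 6804, 7415 and 6054 CPM in females, against 6518, 7334 and 6101 CPM in males. By library totals the groups overlapped almost in full, and the highest library was only 1.22 times the lowest (0.16 ± 0.17, adjusted p = 0.999). With TMM factors Ncl had 6367, 7469 and 7415 CPM in females and 6189, 6980 and 5847 CPM in males. Ddx21, a helicase that ties polymerase I to rRNA processing, ran from 602 to 788 CPM in females and 693 to 781 CPM in males. Mybbp1a, a nucleolar regulator of rRNA synthesis, had 117, 82.1 and 18.8 CPM in females and 93.7, 101 and 85.1 CPM in males. Its spread came from female replicate 3: the highest library was 6.24 times the lowest, and 1.43 times without that library.

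The 14 small subunit factors differed in how far apart their libraries lay, from 1.08 times between the lowest and the highest in Ddx10 to 5.36 times in Rrp9. Heatr1, Wdr43 and Wdr75 belong to the module of the small subunit processome that assembles first on the transcript. Wdr43, the highest of the 14 per kilobase of coding sequence, had 445, 494 and 420.5 CPM in females, against 447, 464 and 421 CPM in males (0.17 ± 0.14, adjusted p = 0.999). By library totals its libraries overlapped and lay within 1.18 times of each other. With TMM factors they overlapped too, but ran from 404 CPM in male replicate 3 to 515 CPM in female replicate 3. Wdr75 ran from 258 to 320 CPM in females and 259 to 336 CPM in males, and Heatr1 from 213 to 371 and 299 to 372 CPM. Utp20, a late processome scaffold, ran from 162 to 289 CPM in females and 229 to 340.3 CPM in males, and the helicase gene Ddx10 from 185 to 199.7 and 187 to 199.6 CPM. By library totals the Ddx10 libraries lay closest together of the 43 genes, but with TMM factors they ran from 178 CPM in female replicate 1 to 226 CPM in female replicate 3, farther apart than those of Gnl3, Ddx21 and Nat10.

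Nop14 and Noc4l form a pair in the processome. Nop14 had 137, 145.5 and 77.3 CPM in females, against 144, 183 and 141 CPM in males (-0.27 ± 0.20, adjusted p = 0.999, and -0.12 without female replicate 3), so that female replicate 2 lay within the males and the others below them. Noc4l ran from 3.50 to 17.95 CPM in females and 12.5 to 16.6 CPM in males. Of the factors that mature and export the small subunit, Ltv1 ran from 149 to 169.9 CPM in females and 155.5 to 187 CPM in males, and Tsr1 from 184 to 287 and 248 to 301 CPM. Nob1, the nuclease of the last cut, ran from 9.13 to 22.7 CPM in females and 19.9 to 22.3 CPM in males, Bysl from 5.04 to 14.1 and 10.1 to 11.4 CPM, and Rrp12 from 3.08 to 15.2 and 8.73 to 10.9 CPM. In each of these 3 the female range enclosed the male range. Nat10, which acetylates cytidines of rRNA, had 59.4, 60.2 and 42.4 CPM in females and 62.3, 63.7 and 60.6 CPM in males. The sexes did not overlap, but the nearest libraries differed by less than 1 CPM (-0.081 ± 0.14, adjusted p = 0.999), and with TMM factors they did overlap. Rrp9, a protein of the snoRNP that guides the first cuts, was the lowest of all 43 genes per kilobase of coding sequence. It had 2.22, 0.921 and 0.413 CPM in females and 1.29, 1.18 and 0.761 CPM in males, and its 15 counts in female replicate 3 gave a 95% Wilson interval of 0.255 to 0.694 CPM.

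Large subunit factors were led by nucleophosmin (Npm1, chr11:33152287-33163206), a nucleolar chaperone and the highest of all 43 genes per kilobase of coding sequence. It had 6630 CPM in female replicate 1, 8055 in 2 and 7504 in 3, against 7434, 7256 and 6776 CPM in males. By library totals female replicate 1 was the lowest library and female replicate 2 the highest (0.20 ± 0.19, adjusted p = 0.999). With TMM factors Npm1 was again lowest in female replicate 1 but highest in female replicate 3, at 9191 CPM. The log2 fold change was 0.064 without female replicate 3 and 0.34 without female replicate 1. Processed copies of Npm1 are known in mammalian genomes, so its estimated counts may be split between near-identical sequences. Noc3l had 134, 162.5 and 123 CPM in females and 136, 166 and 128 CPM in males (0.10 ± 0.17, adjusted p = 0.999), and its partner in yeast, Noc2l, had 43.6, 23.8 and 6.48 CPM in females and 32.2, 22.1 and 26.4 CPM in males. The groups overlapped in both. The GTPase genes Gnl3 and Gnl2 ran from 205 to 285 and 55.6 to 97.8 CPM in females, and from 268 to 274 and 81.6 to 98.4 CPM in males.

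Pes1, Bop1 and Wdr12 encode 1 complex that processes large subunit rRNA. Pes1 had 33.5, 23.5 and 8.47 CPM in females and 22.3, 25.2 and 22.4 CPM in males. Bop1 had 6.59, 2.70 and 0.707 CPM in females and 3.78, 3.70 and 2.79 CPM in males. Wdr12 had 155, 129.6 and 76.8 CPM in females and 126, 135 and 118 CPM in males. In all 3 genes female replicate 1 was the highest and female replicate 3 the lowest of the 6 libraries. The same order held in the rRNA methyltransferase gene Nop2 (26.6, 15.5 and 3.45 CPM in females, 15.3 to 18.4 CPM in males), in Nop16 (43.3, 31.7 and 7.90 CPM, and 27.1 to 31.6 CPM) and in Rrp1b (76.9, 52.7 and 24.3 CPM, and 47.7 to 58.5 CPM). Ddx18, a helicase gene, ran from 142 to 188.5 CPM in females and 148 to 203 CPM in males.

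Among snoRNP genes, Dkc1 (chrX:75095854-75109777), the pseudouridine synthase of H/ACA snoRNPs, was the only X-linked gene of the 43. It had 499.6, 493 and 494 CPM in females, against 441, 483 and 431 CPM in males. All 3 females were higher than all 3 males, and remained so with TMM factors, but the log2 fold change of 0.28 ± 0.15 was not called (adjusted p = 0.999). Over the alternatives with 1 library left out it ran from 0.15 to 0.35. Nop10 and Gar1 are partners of Dkc1: Nop10 had 34.8, 26.7 and 13.2 CPM in females and 39.9, 35.3 and 32.0 CPM in males, and Gar1 78.5, 90.4 and 65.6 CPM in females and 85.3, 77.2 and 80.8 CPM in males. Nhp2, the fourth protein, had 9.56, 3.10 and 0.524 CPM in females and 5.62, 4.79 and 3.65 CPM in males, the widest spread of the 43. Its highest library was 18.3 times its lowest, and 3.08 times without female replicate 3.

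Of the C/D core, the scaffold gene Nop58 had 1066, 1304 and 1144 CPM in females and 1102, 1191 and 1079 CPM in males (0.21 ± 0.17, adjusted p = 0.999, and 0.10 without female replicate 3). Its paralog Nop56 had 302, 223 and 85.7 CPM in females and 241, 209.8 and 203 CPM in males. Fbl, the methyltransferase, had 36.6, 24.9 and 7.10 CPM in females and 28.2, 22.3 and 24.7 CPM in males. By library totals Nop58 varied little between libraries, but with TMM factors it ran from 997 CPM in female replicate 1 to 1401 CPM in female replicate 3. Nop56 and Fbl were lowest in female replicate 3 and highest in female replicate 1. Nolc1, a chaperone of snoRNPs, had another pattern, with 1.014, 3.91 and 2.32 CPM in females and 2.84, 8.85 and 6.43 CPM in males. Female replicate 1 was its lowest library and male replicate 2 its highest, and 2 of 3 females lay below all males (-1.16 ± 0.60, adjusted p = 0.999). The direction was the same in all 14 alternatives, but the value was -0.76 without female replicate 1 and -0.78 without male replicate 2, and its lowest library held 24.4 counts.

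Partners of 1 complex had very different levels per length. Over all 43 genes the level per kilobase of coding sequence went with transcript GC content (Spearman -0.79). The part of GC content in the differences between partners was not tested. Per kilobase of coding sequence, Nop58 averaged 714 CPM over the 6 libraries, Nop56 121 and Fbl 24.4 CPM. In the H/ACA core the values were 310 for Dkc1, 158 for Nop10, 115 for Gar1 and 9.90 CPM per kilobase for Nhp2. Dkc1 was thus 31.4 times as high as Nhp2, and 38.8 times per kilobase of the longest coding transcript. In the large subunit complex Wdr12 had 97.3, Pes1 12.9 and Bop1 1.54 CPM per kilobase, a ratio of 63.2 between the ends, which was 9.09 per kilobase of the longest transcript, because the longest Wdr12 transcript has 10012 bases and its coding sequence 1269. Per kilobase of coding sequence the RNA polymerase I subunits lay closer together, from 15.03 for Polr1b to 3.21 CPM for Polr1a, a ratio of 4.68. Nop58 over Fbl was 29.2 on that scale. Per kilobase of the longest coding transcript the order turned, with 7.13 for Polr1b over Polr1a and 6.03 for Nop58 over Fbl. Over all 43 genes the order per kilobase of coding sequence began with Npm1 (8306), Ncl (3161) and Nop58 (714 CPM per kilobase). It ended with Nolc1 (2.01), Bop1 (1.54) and Rrp9 (0.794 CPM per kilobase). Per kilobase of the longest coding transcript Nop58 held place 7 in place of 3, Nop10 20 in place of 8 and Wdr12 27 in place of 14. The ratios also differed between libraries. Nop58 over Fbl, per kilobase, was 17.8, 32.0 and 98.3 in female replicates 1 to 3 and 23.8, 32.6 and 26.7 in the males. Dkc1 over Nhp2 was 15.7, 47.8 and 284 in females and 23.6, 30.3 and 35.5 in males. Without female replicate 3, the ratios spanned 17.8 to 32.6 and 15.7 to 47.8, and the female and male libraries overlapped.

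**Figure D3:**
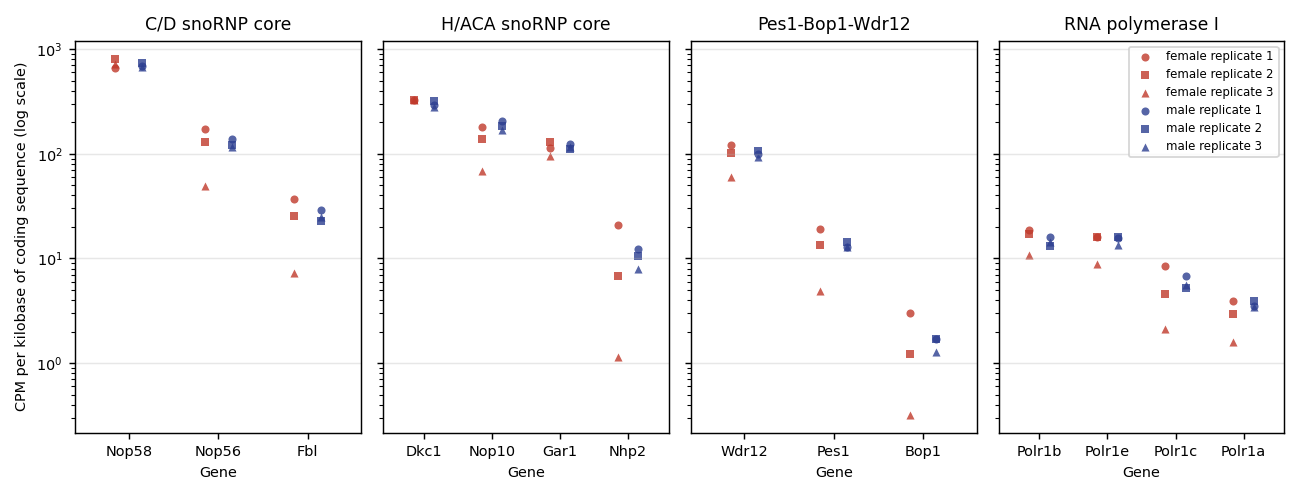
CPM per kilobase of coding sequence (log axis) for the partners of 4 complexes in 3 female (red, left of each pair) and 3 male (blue, right) libraries. Dkc1 averaged 310 and Nhp2 9.90 CPM per kilobase, and female replicate 3 (red triangle) is low for Nhp2, Fbl and Bop1 but not for Dkc1 and Nop58.

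Most of the lowest values of the 43 genes lay in 1 library. Female replicate 3 held the lowest CPM of 38 of 43 genes (28 of 43 with TMM factors) and the highest of 0 (7 with TMM factors), while over all genes tested it held the lowest of 51.4% (35.1% with TMM factors). Female replicate 1 held the highest CPM of 21 of 43 genes (18 with TMM factors), against 29.2% of all genes tested. Male replicate 2 held the highest of 13 (23.8% of all genes) and female replicate 2 of 8 (9.93% of all genes). Summed over the 43 genes the level was 19914, 22070 and 18495 CPM in females and 20053, 21216 and 18702 CPM in males. The groups overlapped, at 20160 ± 1800 CPM in females and 19990 ± 1258 CPM in males (SD, n = 3 each). Ncl and Npm1 held most of this sum. Without them it was 6481, 6600 and 4936 CPM in females and 6101, 6626 and 5825 CPM in males. By library totals the remaining 41 genes together were thus lowest in female replicate 3, which does not carry over to TMM factors. The factor of 0.817 raises all values of that library. With TMM factors the sum of the 43 genes averaged 2.117% in females and 1.905% in males, against 2.016 and 1.999% by library totals.

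Which genes were low in female replicate 3 went with transcript GC content. Of the 43 genes, 24 had a GC content of 50% or more and 19 a lower one. In the first group all 24 were lower in female replicate 3 than the mean of the other 5 libraries, by a median of -1.25 on the log2(CPM + 0.5) scale, and 17 of 24 by more than 1. In the second group 17 of 19 were lower, by a median of -0.31, and 1 of 19 by more than 1. That gene was Nop10, with 46.5% GC. Gar1 also departed from the pattern, with 57.0% GC and a difference of -0.32. Over all genes tested the medians were -0.77 at 50% GC or more (4968 genes) and -0.093 below it (7054 genes). All these differences are by library totals. The TMM factor of female replicate 3 (0.817) raises its values, so with TMM factors fewer genes lie below the other libraries. It scales the genes of both groups alike. In female replicate 1 the deviation from the 6-library mean had a median of 0.63 in the 24 genes and 0.034 in the 19. Across the 43 genes, which are not independent, the Spearman correlation of GC content was -0.71 with the deviation of female replicate 3 and 0.67 with that of female replicate 1. Across 12022 genes tested it was -0.58 and 0.51. GC content also went with the mean level of the 43 genes (Spearman -0.81, and -0.79 per kilobase of coding sequence), and with that of all genes (-0.37). All values of 1 library share its depth and preparation. After each library was corrected for a trend in transcript length and GC content, the median log2 fold change of the 43 genes was 0.027. Of the 43, 27 were positive and 0 were called. Dkc1 and Polr1b, 2 of 43, had an unadjusted p under 0.05, as had 503 of all 12172 genes. The log2 fold change of Gar1 moved from 0.078 to 0.55 with this correction (edgeR adjusted p = 0.947), the highest of the 43. What made these libraries differ was not tested.

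**Figure D4:**
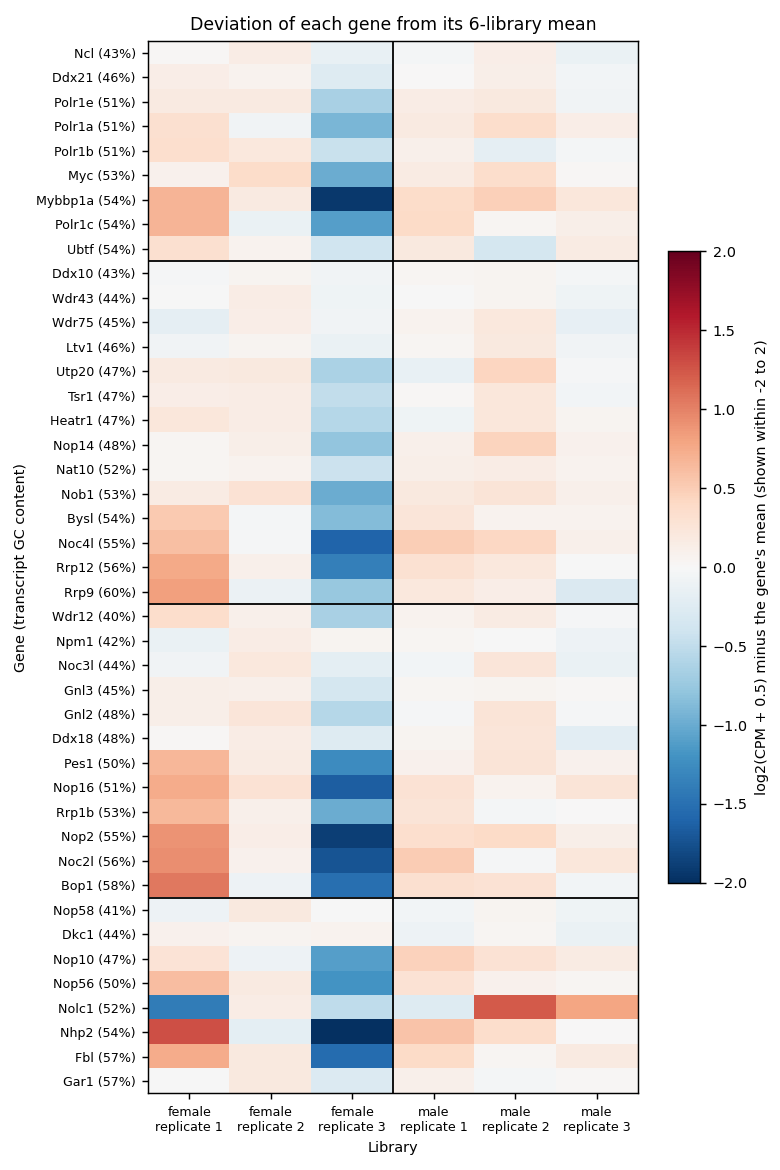
Difference of log2(CPM + 0.5) from each gene's 6-library mean, female libraries left and male libraries right, rows by step and then by transcript GC content (in parentheses). Female replicate 3 is low (blue) in the GC-rich rows of each step, and female replicate 1 is high (red) in most of them. Of the rows at 50% GC or more, Myc, Nob1 and Gar1 are highest in female replicate 2. Polr1a, Polr1e, Nat10 and Nolc1 are highest in male replicate 2, and Nolc1 is lowest in female replicate 1.

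**Figure D5:**
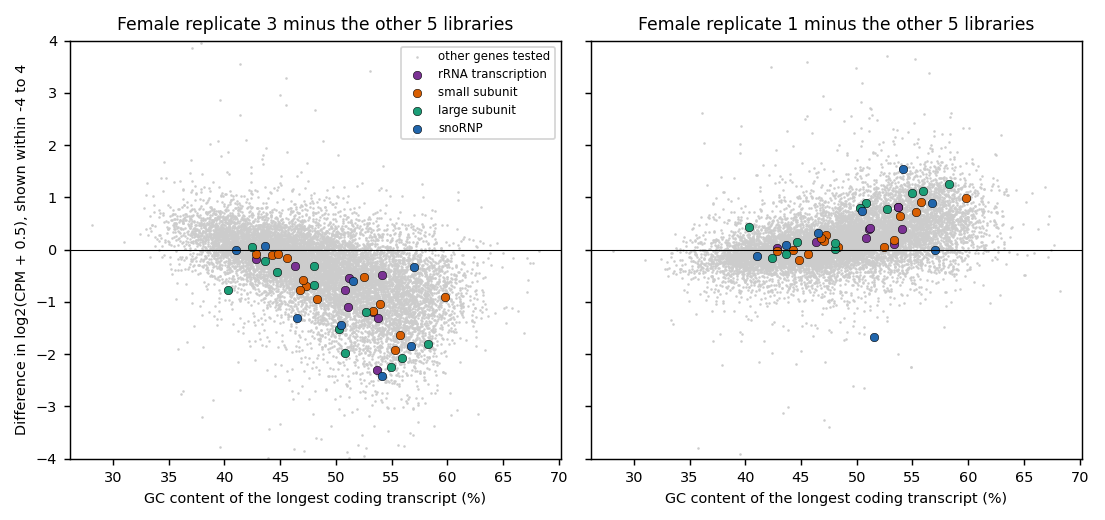
Difference in log2(CPM + 0.5) of female replicate 3 (left) and female replicate 1 (right) from the mean of the other 5 libraries, against transcript GC content, for the 43 genes (coloured by step) and the other genes tested (grey). The coloured points slope down at left and up at right, with Spearman correlations of -0.71 and 0.67 over the 43 genes.

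Other genes of the same pathway, taken from lists by name, gave the same result of 0 calls. Of 11 tested genes of the Myc and Max network 5 were positive (median log2 fold change -0.015), of 15 other RNA polymerase I factors 6 (-0.0064), of 43 other small subunit factors 19 (-0.013), of 47 other large subunit factors 33 (0.070) and of 15 other snoRNP factors 8 (0.054). With library totals only these counts were 3, 5, 12, 17 and 7, and without female replicate 3 they were 3, 13, 32, 39 and 10. DESeq2 also called 0 genes of each list, and an unadjusted p under 0.05 was reached by 1 gene each in the first and second list. Mlxip, a glucose-responsive factor that pairs with Mlx, had 43.9, 35.1 and 19.6 CPM in females, against 51.0, 51.7 and 50.8 CPM in males (-0.54 ± 0.21, adjusted p = 0.999). All females lay below the males, whose SD was 0.450 CPM. Taf1d, a subunit of the promoter selectivity factor of RNA polymerase I, had 46.8, 43.8 and 42.7 CPM in females and 39.0, 30.1 and 33.6 CPM in males (0.52 ± 0.17, adjusted p = 0.999). All females lay above the males, and unlike most genes here Taf1d was not low in female replicate 3. Ttf1, which ends RNA polymerase I transcription, had 39.2, 38.1 and 38.3 CPM in females and 45.4, 58.2 and 46.8 CPM in males (-0.23 ± 0.18, adjusted p = 0.999). By library totals the sexes again did not overlap in Ttf1, but with TMM factors they did.

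The other genes with the smallest p of their list in 1 direction were also not called. Mga, a Max partner, averaged 573 ± 49.996 CPM in females and 508 ± 82.4 CPM in males (SD, n = 3 each). Of the small subunit list, Utp6 averaged 183 ± 2.53 CPM in females and 161 ± 12.4 CPM in males, without overlap, and Imp3 29.9 ± 10.1 and 38.7 ± 5.34 CPM. Of the large subunit list, Rsl1d1 averaged 697 ± 71.2 CPM in females and 638 ± 64.9 CPM in males, and Sbds, a factor that readies the subunit for translation, 28.6 ± 10.2 and 35.0 ± 3.05 CPM. Of the snoRNP list, Znhit3 averaged 25.7 ± 3.40 CPM in females and 20.3 ± 2.49 CPM in males. Gltscr2, placed in this list by name, averaged 2.69 ± 0.205 and 4.06 ± 0.868 CPM. Its sexes did not overlap by library totals but did overlap with TMM factors. Over all genes tested, 2.69% were higher and 7.55% lower in females without overlap by library totals.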

How the data were processed

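The deposited table holds estimated counts per gene symbol, not scaled to a common depth. The submitters' processing notes name kallisto, DESeq2 and the build GRCm38.p6. For versions, annotation and settings, the labels say nothing, and the deposited estimates may carry a scaling by transcript length. Estimated counts were rounded for count tests; CPM values use unrounded counts and library totals. The comparison of females with males used edgeR 4.0.16 in R 4.3.3 (filterByExpr, TMM, glmQLFit and glmQLFTest with a term for sex), with p-values adjusted by Benjamini-Hochberg over 12172 genes at 0.05. Biological variation had a coefficient of 0.351. Each standard error is the size of the log2 fold change divided by the square root of F. DESeq2 1.42.0, limma-voom (limma 3.58.1), RLE factors, library totals only, the replicate number as a block, 2 other filters (none, and 1 CPM in 3 libraries), a length and GC trend and each library left out were alternatives. The trend used natural splines of 4 degrees of freedom on the longest coding transcript for 98.8% of tested genes. GENCODE M21 gave a transcript for 40196 of 41669 symbols, 969 of them through a RefSeq synonym. Coding lengths are those of the CCDS or principal transcript. The fit was tested on simulated counts. Figures were drawn with matplotlib 3.10.9.

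The genes and lists were chosen with earlier results of these data known. Every one of the 43 genes is accounted for. Full values and tests were given to Myc, in each step the 2 genes with the smallest p and the most abundant one, X-linked genes and genes without overlap between the sexes. Of each further list the gene with the smallest p in each direction is named. Other members were shown for their place in a complex or step. Strand use in counting is not given, so reads of antisense partners cannot be told apart. Intervals and floors cover counting error only. Each library is 1 mouse, so the spread is between animals.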

Additional observations from a re-analysis of the deposited data

How the results depend on the processing

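No gene of the 43 and none of the other pathway lists was called under any of the 14 alternatives run, and the smallest adjusted p of any of the 43 was 0.405, without female replicate 1. The median log2 fold change ran from -0.099 (library totals only) to 0.027 (corrected for length and GC content) with all 6 libraries, and from -0.10 to 0.10 with 1 library left out. Positive genes numbered 21 of 43, 8 with library totals only, which lower all genes, and 14 to 35 with 1 library left out. Calls over all genes numbered 7, but 35 with DESeq2, 11 with no low-count filter, 11 with the length and GC trend removed, and 4 to 12 with 1 library left out. Of 168 values of the 12 genes with tests, 6 changed sign: Myc to 0.0691 without female replicate 3 (range -0.442 to 0.0691 with 1 library left out) and 0.0125 with the trend removed, Nat10 to 0.0849, Ncl to -0.00213 and Nop58 to -0.0166 with the trend removed, and Noc3l to -0.0349 with library totals only. The cause was not tested. With TMM factors the median level of the 43 genes in males was 59.3 CPM, against 62.2 CPM by library totals. The E-box share was 2.70% in the 250 bases before the start, against 18.9% in the whole window, and the split at the start was chosen after seeing the data.

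With the replicate number as a block, 7 genes were called over all genes, 0 of the 43, and 19 of 43 were positive with a median of -0.037. The labels give no shared source for equal numbers, and the deviations of same-numbered libraries correlated at 0.262, 0.063 and 0.087. Female replicate 3 correlated better with male replicate 2 (0.129) than with its own number. Nolc1 had an unadjusted p under 0.05 with the block and without male replicate 1, and Nop10 and Nop58 without female replicate 1, where 1521 genes had one. Low counts limit Rrp9, Nhp2 and Bop1, at 15, 19 and 25 counts in female replicate 3, and Nolc1, at 24.4 counts in female replicate 1. Of the library totals, that of female replicate 3 was the largest and that of female replicate 1 the smallest. With 1 library left out, the log2 fold change ran from -1.58 to -0.76 for Nolc1, -0.49 to -0.075 for Polr1a, 0.15 to 0.33 for Polr1b, -0.41 to -0.12 for Nop14, 0.064 to 0.34 for Npm1, 0.10 to 0.34 for Nop58, 0.026 to 0.22 for Noc3l, 0.10 to 0.26 for Wdr43, 0.11 to 0.24 for Ncl and -0.14 to -0.038 for Nat10.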

Other observations

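Other genes of growth and division gave no calls either. Of 27 tested Myc targets outside ribosome biogenesis, 14 had a positive log2 fold change, female over male (median 0.0062), 8 with library totals only and 22 without female replicate 3. Mthfd2, a mitochondrial folate enzyme that supplies one-carbon units, had 128, 114 and 85.4 CPM in females and 146, 157 and 146 CPM in males (-0.34 ± 0.13 on the log2 scale, adjusted p = 0.999 by edgeR). All females lay below all males, as in 7.55% of all genes tested. Eif4e, the cap-binding translation factor, had 219.9, 268 and 342 CPM in females and 231, 204 and 237 CPM in males (0.48 ± 0.25, adjusted p = 0.999), and was highest in female replicate 3.

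Of 16 proliferation genes, 8 were positive (median 0.00078), and 2 with library totals only. Ccna2, the cyclin of DNA replication and entry into mitosis, had 373, 386 and 852 CPM in females and 453, 237 and 523 CPM in males (0.62 ± 0.47, adjusted p = 0.999). Its level in female replicate 3 was the highest of the 6, where most ribosome biogenesis genes were lowest. Mcm5, a subunit of the replicative helicase, had 44.2, 38.1 and 13.8 CPM in females and 49.1, 37.0 and 42.3 CPM in males (-0.34 ± 0.33, adjusted p = 0.999), and was lowest in that library.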
